A study of Mus musculus with 12 samples.

Results

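The 10 genes of the Notch pathway followed here were measured in mouse gastruloids, which are aggregates of embryonic stem cells that break symmetry and form an anterior-posterior axis in culture. They are the receptors Notch1, Notch2 and Notch3, the ligands Jag1 and Dll4, and the Hes1, Hes5, Hey1, Hey2 and Heyl genes, which encode transcriptional repressors. The genes were matched by symbol, and these 10 of the 55141 genes in the deposited count table were all found. The list was put together with earlier fold changes of these same libraries between embedding times and gels in view, so the p-values given for it describe the genes and are not independent support for them. Gastruloids of the 129/SVEV background were grown from 300 cells, received 3 µM CHIR99021, a Wnt pathway agonist, for 24 h from 48 h onward, and were collected at 120 h. Embedding in a dextran hydrogel took place either 72 h or 96 h after the cells were seeded, and the gel was used at 1.0 mM or, in a stiffer form, at 1.5 mM. This gave 4 groups of 3 replicates and 12 poly-A RNA-seq libraries in all. About 30 gastruloids were pooled per replicate, and all groups shared the cell background, the CHIR99021 pulse, the enzymatic release from the gel and the time of collection. The study describes the replicates as independent, and no library without a gel entered the comparisons.

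In Notch signaling, a Delta-like or Jagged ligand on a cell binds a Notch receptor on its neighbor. ADAM proteases and the gamma-secretase complex then release the intracellular domain of the receptor, which enters the nucleus and acts with the DNA-binding protein RBPJ to switch on target genes, among them Hes and Hey genes. In embryos of this stage the pathway is known for the segmentation clock and somite borders, for arterial endothelium, for neural progenitors and for the heart, where Hey2 is a known marker of compact ventricular muscle.

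Upstream sequences are shown for 3 of the genes, since Hey2 and Jag1 carried the clearest differences between embedding times and Hes5 is a classical direct target of RBPJ. RefSeq promoter entries on GRCm38.p6, the assembly also called mm10, were found for 7 of the 10 genes, and Hes1, Hey1 and Heyl had no entry. In each of the 250-base upstream windows, exon bases of the annotation were left out, and 2 motifs were searched on both strands, the RBPJ core TGGGAA and the class C site CACGNG bound by Hes and Hey proteins. The letters of the 2 motifs did not overlap in any of the windows. The Hey2 window lies on the minus strand of chr10:30842802-30843033 and holds 1 RBPJ core, 207 bases before the RefSeq start. The Hes5 window lies on the plus strand of chr4:154960673-154960922 and holds 2 RBPJ cores, 226 and 82 bases before the start. The Jag1 window lies on the minus strand of chr2:137116645-137116770 and holds 2 class C sites, 249 and 171 bases before the start. Capitals mark these matches, on either strand.
Hey2: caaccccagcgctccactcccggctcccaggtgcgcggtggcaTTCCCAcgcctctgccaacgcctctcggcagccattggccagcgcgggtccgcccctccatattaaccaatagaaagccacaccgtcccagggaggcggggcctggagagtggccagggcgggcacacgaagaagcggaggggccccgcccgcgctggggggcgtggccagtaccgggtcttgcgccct
Hes5: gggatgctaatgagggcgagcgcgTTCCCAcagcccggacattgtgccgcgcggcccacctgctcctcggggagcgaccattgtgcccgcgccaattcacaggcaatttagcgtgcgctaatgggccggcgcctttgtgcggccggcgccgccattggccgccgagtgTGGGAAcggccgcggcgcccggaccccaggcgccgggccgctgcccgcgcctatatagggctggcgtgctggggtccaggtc
Jag1: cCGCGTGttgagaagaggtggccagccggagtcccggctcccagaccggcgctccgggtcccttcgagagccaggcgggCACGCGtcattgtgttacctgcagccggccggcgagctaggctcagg
An RBPJ core occurred in 21.6% of 32851 RefSeq promoter windows of 250 bases and a class C site in 23.5%, so that a single match is common. Exon bases were kept in these windows, whereas 126 bases were left to search for Jag1 and 232 for Hey2. The Notch2, Notch3 and Dll4 windows held 1 class C site each, and neither motif was found in that of Notch1. These matches describe the letters of the windows only.

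Total counts ran from 23011791 to 27609422 per library, with the 6 libraries of 72 h embedding all below the 6 of 96 h embedding. A single transcript, CT010467.1, took up to 6.12% of the counts, in replicate 1 of 72 h embedding in 1.5 mM gels, and 4.21% in replicate 2 of 96 h embedding in 1.5 mM gels. Values per library are given in CPM, counts scaled to library size with TMM over the 12 libraries, and positive log2 fold changes mean higher after embedding at 72 h, or higher in 1.5 mM gels. A gene was called where the edgeR quasi-likelihood test gave a Benjamini-Hochberg adjusted p below 0.05 over all genes tested. In bulk libraries such as these, fewer cells of a type and less RNA per cell cannot be told apart.

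Compared per transcript length, in the FPKM values of the authors, the pathway was expressed mostly through Hes1, Notch3 and Hey1. Hes1 had the highest mean over the 12 libraries, at 28.9 ± 5.87 FPKM (SD, n = 12), followed by Notch3 at 16.3 ± 2.39 FPKM and Hey1 at 12.5 ± 2.78 FPKM. Hes1 was above Notch3 in 11 of 12 libraries, and Notch3 above Hey1 in 9 of 12. Notch1, Notch2 and Jag1 came next with means of 9.61, 9.45 and 9.30 FPKM, and their neighboring differences, 0.152 and 0.153 FPKM, were far smaller than the SD of those differences over libraries, 1.32 and 1.69 FPKM. Hey2 was lower, at 4.80 ± 2.32 FPKM, and below Jag1 in all 12 libraries. Dll4, the Delta-like ligand of arterial endothelium, had 0.902 ± 0.261 FPKM, Heyl 0.650 ± 0.305 FPKM and Hes5 0.187 ± 0.0996 FPKM. Dll4 was above Heyl in 9 of 12 libraries, so that these neighbors in the order were not separated, whereas Heyl was above Hes5 in all 12. Hes5, which marks neural progenitors with active Notch signaling, rested on 4 to 17 counts per library.

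**Figure D1:**
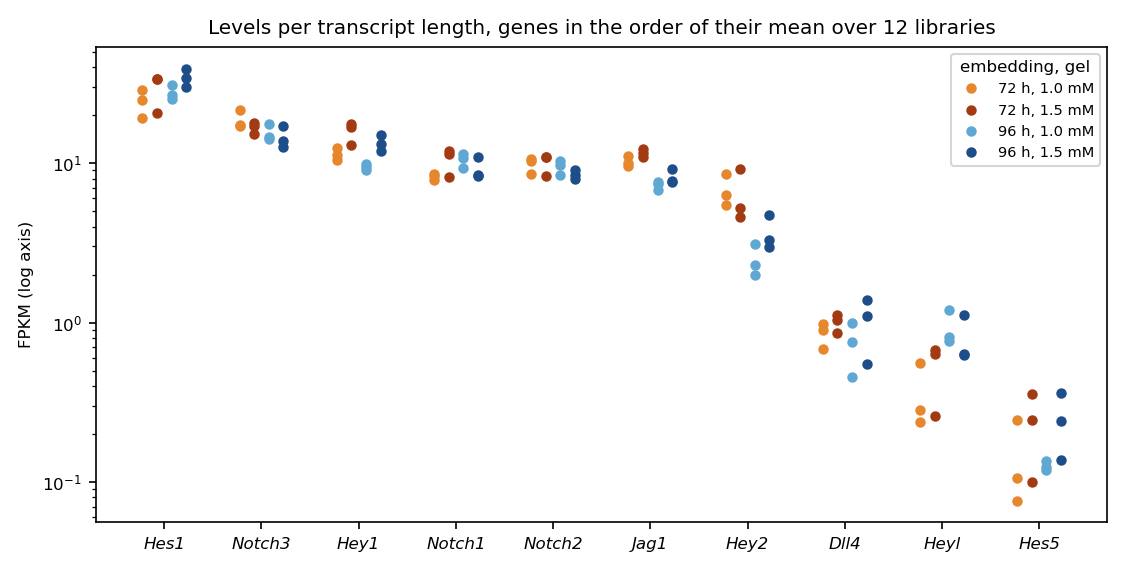
FPKM (log axis) of the 10 genes in the 12 libraries, genes ordered by their mean and libraries colored by embedding time and gel. Hes1 lies highest, between 19.3 and 39.1 FPKM, and Hes5 lowest, between 0.0762 and 0.362 FPKM.

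Between embedding times, Jag1 and Hey2 were higher and Heyl was lower after embedding at 72 h, with the clearest separation in 1.0 mM gels. In 1.0 mM gels, 4 of the 9 genes tested were called, against 9.24% of the 15763 genes tested. Jag1 and Hey2 rose, as did 5.97% of all genes, and Notch1 and Heyl fell, as did 3.27%. Of these, Hey2 and Heyl also passed the study's additional limit of an absolute log2 fold change above 1, which 4.30% of all genes did. In 1.5 mM gels, 1 of 10 genes was called, Jag1, which rose, against 19.3% of 15683 genes (10.4% upward and 8.98% downward), and none passed the fold-change limit, against 3.18% of all genes. With replicate number as a block, Jag1, Hes1 and Hey2 were called there. The share of all genes called with the block is not given, so these calls are not set against a background and describe that fit only. The numbers pair the libraries in these gels only by a limit on their correlation. The groups of 3 libraries did not overlap in CPM for 5 of the genes in 1.0 mM gels (28.4% of all genes tested) and for 1 in 1.5 mM gels (39.9%). The median log2 fold change of the genes tested was 0.27 in 1.0 mM and 0.18 in 1.5 mM gels, against -0.01 over all genes in both. With all 12 libraries in a fit with gel concentration as a term, 5 of 10 were called, Notch3, Jag1, Hey1 and Hey2 upward and Heyl downward, where 31.1% of 16388 genes were called (16.2% upward and 14.8% downward). Hey2 alone passed the fold-change limit there, against 4.66% of all genes.

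**Figure D2:**
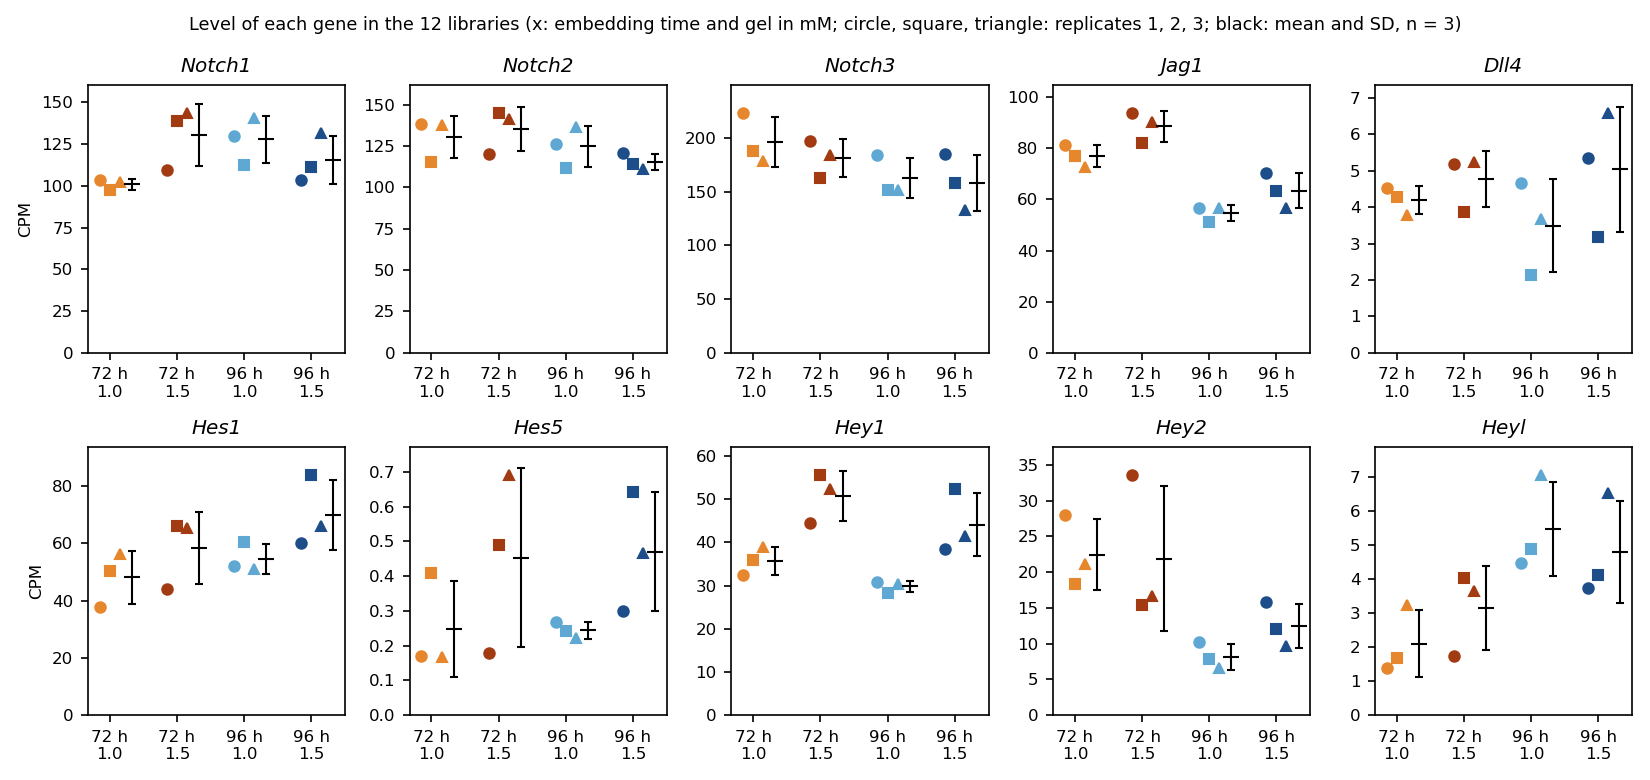
CPM of each gene in every library, in a panel per gene with an axis from 0, with the 3 replicates of each group as different symbols and the mean and SD (n = 3) in black. The Jag1 libraries of 72 h embedding lie above those of 96 h in each gel, and Hey1 lies higher in 1.5 mM than in 1.0 mM gels at each time.

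**Figure D3:**
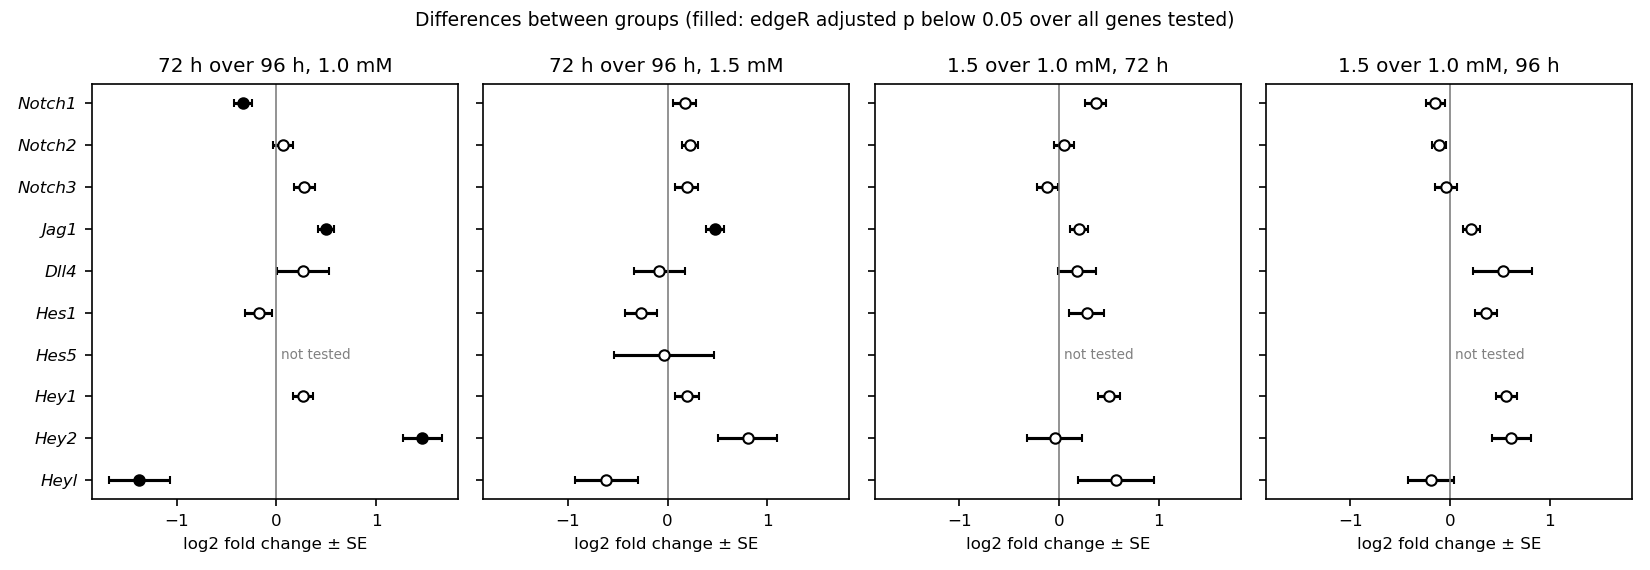
Log2 fold changes with their standard errors in the 4 pairwise comparisons, filled where the adjusted p was below 0.05. Filled symbols occur for Notch1, Jag1, Hey2 and Heyl between embedding times in 1.0 mM gels and for Jag1 in 1.5 mM gels, and none occurs between gels.

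Among the receptors, Notch1 (ENSMUSG00000026923, chr2:26457903-26516663, minus strand, mm10, a protein-coding gene) was at 103, 97.3 and 102 CPM after 72 h embedding in 1.0 mM gels and at 130.0, 113 and 141 CPM after 96 h. The 3 earlier libraries were all below the later ones and lay close together. The log2 fold change was -0.34 ± 0.0890 (SE), with an adjusted p of 0.0371 in edgeR. This call was lost when replicate 1, 2 or 3 of 72 h embedding was left out (adjusted p = 0.0543, 0.0750 and 0.0727) or replicate 1 or 3 of 96 h embedding (0.120 and 0.179), and in a single fit of all 12 libraries (0.0633). After embedding in 1.5 mM gels, Notch1 was at 109, 139 and 144 CPM in the 72 h group and at 103, 112 and 132 CPM after 96 h. These groups overlapped, with a log2 fold change of 0.17 ± 0.115 (edgeR adjusted p = 0.324), which was called without replicate 1 of 72 h embedding (0.28, adjusted p = 0.0383). The interaction term, the difference between these 2 fold changes, was 0.52 ± 0.157 on the log2 scale, with an unadjusted edgeR p of 0.00498 and an adjusted p of 0.953. No gene of the 10 had a called interaction, and neither did any of the 16388 genes tested (0%), of which 708 (4.32%) had an unadjusted p below 0.05 in edgeR.

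Notch3, the receptor best known from vascular smooth muscle, was at 223, 188 and 179 CPM against 184, 152 and 151 CPM in 1.0 mM gels, and at 197, 162 and 184 CPM against 185, 158 and 132 CPM in 1.5 mM gels. Its groups overlapped in each gel, and it was not called within either (log2 fold changes of 0.28 and 0.19, edgeR adjusted p = 0.137 and 0.277), though without the low-count filter it was called in 1.0 mM gels (0.28, adjusted p = 0.0308). Over both gels the log2 fold change was 0.23 ± 0.0838, with an edgeR adjusted p of 0.0443, and this call was lost without any of 8 libraries. These were replicates 1 and 2 of 72 h embedding in 1.0 mM gels (adjusted p = 0.103 and 0.0509), replicates 2 and 3 of 96 h in 1.0 mM (0.102 and 0.0910), replicates 1 and 3 of 72 h in 1.5 mM (0.0952 and 0.0667) and replicates 2 and 3 of 96 h in 1.5 mM gels (0.0693 and 0.106). It was also lost with upper quartile normalization (0.0625) and with a filter of at least 1 CPM in 3 libraries (0.0504). Notch2 ranged from 111 to 145 CPM over the 12 libraries, the narrowest relative range in the list, and had log2 fold changes of 0.07 in 1.0 mM and 0.23 in 1.5 mM gels (edgeR adjusted p = 0.724 and 0.0706). Notch2 was called in the stiffer gels without replicate 1 of 72 h embedding (0.30, adjusted p = 0.00421), and over both gels without replicate 2 of 72 h or replicate 3 of 96 h embedding in 1.0 mM gels (adjusted p = 0.0236 and 0.0472, against 0.109 with all libraries).

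Of the ligands, Jag1 (ENSMUSG00000027276, chr2:137081456-137116644, minus strand), a Jagged ligand that acts in heart, vessel and inner-ear development, was the gene of the list called within each gel. Jag1 levels in 1.0 mM gels were 81.3, 77.0 and 72.9 CPM after 72 h embedding and 56.5, 51.1 and 56.6 CPM after 96 h. Its levels in the stiffer gels were 93.7, 82.0 and 90.3 CPM against 70.3, 63.4 and 56.6 CPM. Every library of 72 h embedding was thus above every library of 96 h embedding, over both gels together. The log2 fold changes were 0.50 ± 0.0819 (1.41-fold, edgeR adjusted p = 0.00352) and 0.48 ± 0.0904 (1.39-fold, adjusted p = 0.00886). Over both gels the log2 fold change was 0.49 ± 0.0594, with an edgeR adjusted p of 3.72e-05. The calls within each gel held with any library left out, with adjusted p of at most 0.0236 and 0.0399. The interaction was -0.01 ± 0.123 on the log2 scale. Dll4 was at 2.13 to 5.36 CPM apart from a single library at 6.58 CPM, replicate 3 of 96 h embedding in 1.5 mM gels. Its groups overlapped in all 4 comparisons, with log2 fold changes between embedding times of 0.27 and -0.08 (edgeR adjusted p = 0.583 and 0.844).

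Neither Hes gene was called between embedding times in these fits. Hes1, a repressor that oscillates in many progenitor cells, was at 37.8, 50.3 and 56.1 CPM after 72 h embedding in 1.0 mM gels and at 52.1, 60.5 and 50.9 CPM after 96 h. Hes1 levels in the stiffer gels were 43.9, 66.2 and 65.3 CPM against 60.1, 83.7 and 66.2 CPM. The groups overlapped in both gels, and the log2 fold changes were -0.18 ± 0.134 and -0.26 ± 0.163 for the softer and the stiffer gel (edgeR adjusted p = 0.483 and 0.280). With the replicate block, the value in 1.5 mM gels was -0.27, with an adjusted p of 0.0473. Hes5 ranged from 0.166 to 0.689 CPM and did not pass the filter on low counts in 3 of the 4 pairwise comparisons. In the other, between embedding times in 1.5 mM gels, the log2 fold change was -0.04 ± 0.50, so that a difference was not detectable at this depth. Between gels, in the fit over both times, it was 0.90 ± 0.357 and not called (edgeR adjusted p = 0.314).

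The Hey genes moved in different directions. Hey2 (ENSMUSG00000019789, chr10:30832359-30842801, minus strand) was at 28.0, 18.3 and 21.1 CPM after 72 h embedding in 1.0 mM gels and at 10.2, 7.79 and 6.54 CPM after 96 h. The lowest early library was well above the highest late library, and the log2 fold change was 1.47 ± 0.192 (2.76-fold, edgeR adjusted p = 0.00106). Hey2 levels in the stiffer gels were 33.5, 15.4 and 16.7 CPM against 15.8, 12.0 and 9.62 CPM. The highest late library was just above the lowest early library here, and the log2 fold change of 0.80 ± 0.293 was not called (edgeR adjusted p = 0.0828), whereas with the replicate block it was 0.75 with an adjusted p of 0.00677. Without replicate 1 of 72 h embedding the log2 fold change was 0.35, and with each library left out in turn it ranged from 0.35 to 1.01, with adjusted p from 0.0566 to 0.239. The interaction was -0.65 ± 0.390 on the log2 scale, with an edgeR adjusted p of 0.953, so that a difference between gels in the size of the change was not shown.

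Heyl (ENSMUSG00000032744, chr4:123233556-123249875, plus strand), which is known from vascular smooth muscle and somites, went the other way. It was at 1.40, 1.67 and 3.25 CPM after 72 h embedding in 1.0 mM gels and at 4.48, 4.90 and 7.06 CPM after 96 h, with no overlap. The log2 fold change was -1.37 ± 0.307 (edgeR adjusted p = 0.0171), and the call was lost without replicate 3 of 96 h embedding (-1.15, adjusted p = 0.0859). Heyl levels in the stiffer gels were 1.73, 4.05 and 3.65 CPM against 3.75, 4.13 and 6.54 CPM. These groups overlapped, with a log2 fold change of -0.62 ± 0.318 (edgeR adjusted p = 0.200). Over both gels the log2 fold change was -0.98 ± 0.257 (edgeR adjusted p = 0.00968), and that of Hey2 was 1.13 ± 0.209 (adjusted p = 0.00105).

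Hey2 and Heyl moved with marker genes of other tissues. All 9 cardiac mesoderm markers, among them Nkx2-5, Gata4, Tbx20 and Tnnt2, were called higher after 72 h embedding in 1.0 mM gels, and 5 of 9 were in 1.5 mM gels. Of all genes, 5.97% and 10.4% were called higher in these gels. The summed level of the cardiac markers was 469 to 842 CPM after 72 h embedding in 1.0 mM gels and 70.6 to 192 CPM after 96 h. It was 362 to 731 CPM against 180.4 to 298 CPM in 1.5 mM gels. Within each of the 4 groups, the library with the highest Hey2 level, replicate 1, also had the highest cardiac sum. Of the 9 somite markers, among them Meox1, Tcf15 and Pax3, 8 were called lower after 72 h embedding in 1.0 mM gels and 7 in 1.5 mM gels. Of all genes, 3.27% and 8.98% were called lower in these gels. The somite sum was 221 to 416 CPM against 779 to 911 CPM in 1.0 mM gels, and 279.6 to 492 CPM against 616 to 844 CPM in 1.5 mM gels. Replicate 1 had the lowest Heyl level and the lowest somite sum of its group in all 4 groups. By deviations from the group mean over all tested genes, replicate 1 libraries correlated with r of 0.331 and 0.195 between embedding times (1.0 and 1.5 mM gels). Between gels, r was 0.165 at 72 h and 0.316 at 96 h. The agreements in the 4 groups therefore cannot be counted as independent of each other. No marker on these lists was at 0 in all libraries. The part of cardiac and somite cells in the Hey2 and Heyl differences was not tested.

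**Figure D4:**
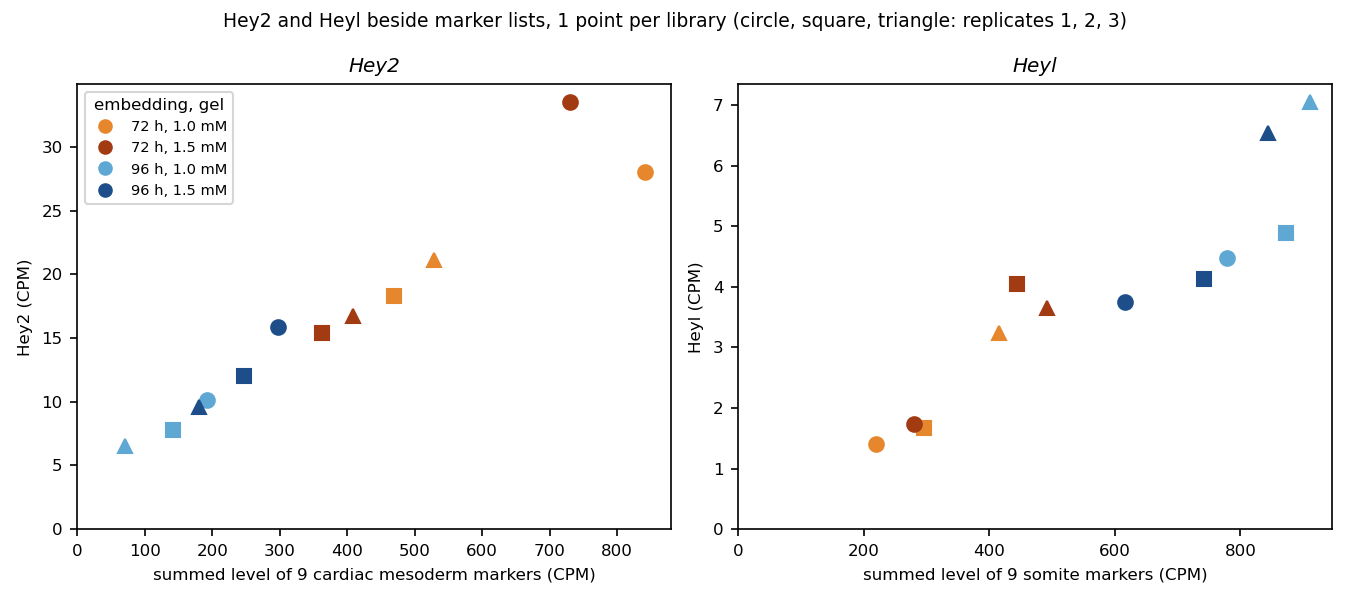
Hey2 (CPM) against the summed CPM of 9 cardiac mesoderm markers, and Heyl (CPM) against that of 9 somite markers, with 1 point per library colored by group. The 2 highest Hey2 levels, 33.5 and 28.0 CPM, lie at cardiac sums of 731 and 842 CPM. The 2 highest Heyl levels, 7.06 and 6.54 CPM, lie at somite sums of 911 and 844 CPM, while Heyl is at 4.90 CPM where the sum is 873 CPM.

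Other marker lists were set beside the remaining genes. Endothelial cells are a known site of Notch1, Dll4, Hey1 and Notch4 expression. Of 12 endothelial markers, 2 were called higher and 2 lower after 72 h embedding in 1.0 mM gels and 4 lower in 1.5 mM gels, while their sums overlapped, at 295 to 408 CPM against 325 to 367 CPM and at 292 to 449 CPM against 394 to 439.8 CPM. Kdr made up 194 of 360 CPM on average after 72 h and 142 of 349 CPM after 96 h in 1.0 mM gels. Over both gels 9 of the markers were called, 3 higher and 6 lower, against 31.1% of all genes. The sums of 6 tail bud markers and of 6 neuronal markers were higher after 72 h embedding without overlap in each gel, as was Jag1. The tail bud sums were 285 to 359.9 CPM against 132 to 189.9 CPM in 1.0 mM gels and 245 to 287 CPM against 119 to 131 CPM in 1.5 mM gels, while the neuronal sums were 16.9 to 20.9 CPM against 8.27 to 12.0 CPM and 17.6 to 22.1 CPM against 10.1 to 11.5 CPM. In 1.0 mM gels, T made up 251 of 315 CPM of the mean tail bud sum after 72 h embedding and 112 of 159 CPM after 96 h. Fgf8 and Cyp26a1 also had higher means after 72 h there, and Cdx2, Nkx1-2 and Wnt3a lower ones. Tubb3 and Stmn2 made up 8.83 and 8.61 of 18.9 CPM of the mean neuronal sum after 72 h in these gels. Of each of these lists, 2 markers were called higher and 1 lower in 1.0 mM gels, where 5.97% of all genes were called higher and 3.27% lower. In 1.5 mM gels 2 of each were called higher, against 10.4% of all genes. Their part in the Jag1 difference was not tested. Among 9 presomitic mesoderm markers, of which Hes7, Lfng, Dll1 and Dll3 belong to the pathway as well, 1 was called lower in 1.0 mM gels and 3 higher in 1.5 mM gels. Of 9 neural progenitor markers, 2 were higher and 2 lower, then 1 and 1, of 6 endoderm markers 1 and 0, then 1 and 1, and of 6 mural and smooth muscle markers 1 and 1, then 0 and 1. Beside the counts of all these lists, 9.24% of all genes tested were called in 1.0 mM gels and 19.3% in 1.5 mM gels.

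Between gels, Hey1 was higher in the stiffer gel at each embedding time. Hey1 (ENSMUSG00000040289, chr3:8663359-8667256, minus strand), a repressor of arterial endothelium and other tissues, was at 32.4, 35.9 and 39.0 CPM in 1.0 mM gels and at 44.4, 55.5 and 52.4 CPM in 1.5 mM gels after 72 h embedding. After 96 h embedding it was at 30.9, 28.3 and 30.3 CPM against 38.5, 52.3 and 41.5 CPM. The groups did not overlap at either time. The log2 fold changes were 0.51 ± 0.109 and 0.56 ± 0.107, with edgeR adjusted p of 0.698 and 0.122. In the fit over both times, Hey1 was the only gene of the list called, at 0.53 ± 0.0798 (1.45-fold, edgeR adjusted p = 0.0257), where 0.0305% of 16388 genes were called, 5 in all, and 0.0122% were higher in 1.5 mM gels. The others were Jund, B3gnt7 and Egr1, which were lower in 1.5 mM gels, and Ager, which was higher. The call of Hey1 was lost without replicate 1 of 72 h embedding in 1.0 mM gels, replicates 1 or 2 of 96 h embedding in 1.0 mM gels, or replicates 2 or 3 of 72 h embedding in 1.5 mM gels (adjusted p = 0.0870, 0.0899, 0.0813, 0.0796 and 0.0876), with log2 fold changes of 0.51 to 0.54. None of the 12 endothelial markers was called between gels at 72 h, at 96 h or over both times, and their sums were higher in 1.5 mM gels without overlap after 96 h embedding but not after 72 h. Their part in the Hey1 difference was not tested.

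In the pairwise comparisons of gels, 0 of 9 genes were called at 72 h (0% of 15563 genes) and 0 of 9 at 96 h (0% of 15861 genes) with edgeR. At an unadjusted p below 0.05, 6.90% of genes passed at 72 h and 9.95% at 96 h, and 3 of the listed genes did at 72 h (Notch1, Jag1 and Hey1) and 4 at 96 h (Jag1, Hes1, Hey1 and Hey2). DESeq2 called Hey1 at 96 h (adjusted p = 0.000810), as did edgeR without replicate 1 of 96 h embedding in 1.5 mM gels (0.0449). The groups did not overlap for Notch1, Jag1 and Hey1 at 72 h, where 11.1% of genes did not, and for Jag1, Hey1 and the untested Hes5 at 96 h, where 15.5% of tested genes did not. Jag1 was slightly higher in 1.5 mM gels, by 0.20 and 0.21 on the log2 scale (edgeR adjusted p = 0.704 and 0.451), and by 0.21 ± 0.0593 in the fit over both times (adjusted p = 0.169). Hes1 was higher by 0.28 and 0.36 (edgeR adjusted p = 0.735 and 0.328) and Hey2 differed by -0.04 and 0.61 (0.979 and 0.335), none of them called. The median log2 fold change of the tested genes was 0.20 at 72 h and 0.21 at 96 h, against 0.00 over all genes.

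Over both gels, Hey1 also rose with earlier embedding, by 0.23 ± 0.0797 on the log2 scale (edgeR adjusted p = 0.0384). In 1.0 mM gels its groups did not overlap, with a log2 fold change of 0.27 (adjusted p = 0.139), and in 1.5 mM gels they did, with 0.20 (adjusted p = 0.277). The call over both gels was lost without any of 9 libraries, which were replicates 2 and 3 of 72 h in 1.0 mM gels, all 3 replicates of 96 h in 1.0 mM gels, replicates 2 and 3 of 72 h in 1.5 mM gels and replicates 1 and 3 of 96 h in 1.5 mM gels, with adjusted p from 0.0513 to 0.0856.

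The 45 other genes of the pathway were chosen by their textbook roles. In 1.0 mM gels 2 of the 40 tested were called, Neurl1b upward and Hes7 downward, and in 1.5 mM gels 9 of 41 were, 7 upward and 2 downward, against the same shares of all genes as above, 9.24% and 19.3%. Their median log2 fold change was 0.03 and 0.04. Neurl1b, a ubiquitin ligase for ligand endocytosis, was at 12.8, 6.25 and 10.2 CPM after 72 h embedding in 1.0 mM gels and at 4.37, 3.05 and 2.68 CPM after 96 h (log2 fold change 1.54 ± 0.269, edgeR adjusted p = 0.00493). Hes7, the oscillating repressor of the segmentation clock, was low, at 0.848, 0.531 and 0.499 CPM against 3.30, 1.57 and 1.65 CPM (-1.78 ± 0.377, adjusted p = 0.0132). Among the genes called in 1.5 mM gels, the largest change was that of Dll3, a ligand-like protein of the segmentation clock that acts within the cell, at 23.3, 36.5 and 28.4 CPM against 14.6, 17.2 and 10.6 CPM (1.05 ± 0.195, edgeR adjusted p = 0.00815).

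Of the other genes called in 1.5 mM gels, Lfng and Mfng, Fringe enzymes that add sugars to the receptors, rose by 0.67 and 0.82 on the log2 scale (edgeR adjusted p = 0.0476 and 0.0417), and the third Fringe gene, Rfng, fell by 0.40 (adjusted p = 0.0120). Mib1, the main ubiquitin ligase of the ligands, rose by 0.49 (edgeR adjusted p = 0.00258). The receptor proteases Adam17 and Aph1b rose by 0.25 and 0.55 and Psenen fell by 0.35 (edgeR adjusted p = 0.0325, 0.0187 and 0.0271). Itch, which marks receptors for degradation, rose by 0.24 (adjusted p = 0.0467). The count of 9 fell to 3 without replicate 2 or replicate 3 of 72 h embedding in 1.5 mM gels. It fell to 2 without replicate 2 or replicate 3 of 96 h embedding, and Dll3 and Mib1 were called in each of these fits. With each of the 6 libraries left out in turn, the count ranged from 2 to 13. The share of all genes called in those fits is not given, so these counts describe the fits and not the pathway genes. Over both gels 12 of 41 were called, 6 upward and 6 downward (31.1% of all genes), and none was called between gels. Dll1, Jag2, Dlk1 and Dner, the other ligands tested, had log2 fold changes of -0.46, 0.01, -0.03 and 0.55 in 1.0 mM gels and 0.12, -0.17, -0.18 and -0.34 in 1.5 mM gels, none of them called in these fits, and Dlk2 was not tested. Notch4, the endothelial receptor, was at -0.44 and -0.39, and called downward only in the fit over both gels (-0.41 ± 0.121, edgeR adjusted p = 0.0174). Rbpj, which encodes the DNA-binding partner of the receptors, ranged from 38.6 to 47.3 CPM over the 12 libraries, with log2 fold changes of -0.12 and -0.02. Nrarp, a feedback inhibitor induced by Notch signaling, had -0.04 and 0.21, and Hes6, which opposes Hes1, had 0.04 and 0.01, none of them called.

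**Figure D5:**
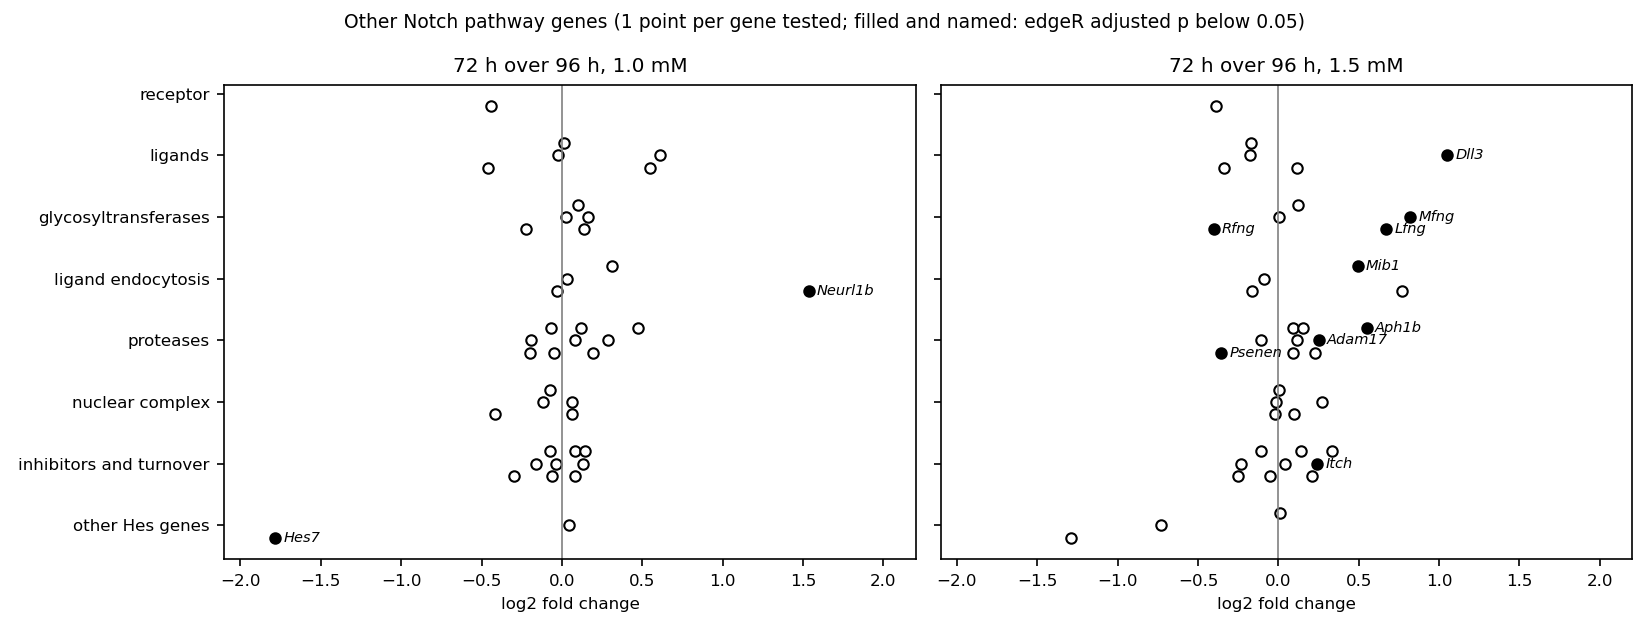
Log2 fold changes (72 h over 96 h embedding) of the other pathway genes tested, 1 point per gene in rows by role, filled and named where the adjusted p was below 0.05. In 1.0 mM gels 2 points are filled, Neurl1b and Hes7, and in 1.5 mM gels 9, with Dll3 farthest to the right at 1.05.

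Genes with a pattern like that of Jag1, the gene of the list called in the same direction within each gel, were sought by Pearson's correlation of log2 CPM over the 12 libraries among 11300 genes. Etl4 (r = 0.970), Mapk4 (r = 0.961) and Nmt2 (r = 0.957) were the closest. The points share libraries, depth and the same groups, and the values are a description. These genes had log2 fold changes between embedding times of 0.50, 1.03 and 0.26 in 1.0 mM gels and 0.43, 0.73 and 0.30 in 1.5 mM gels, beside 0.50 and 0.48 for Jag1.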

How the data were processed

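Bulk poly-A RNA-seq of 12 gastruloid libraries was analysed, in 4 groups of 3 replicates taken from the sample labels. The authors trimmed reads with cutadapt 4.4, aligned them to mm10 with STAR 2.7.10b and deposited a table of raw, unnormalized counts, with libraries made from a stranded kit and the strand setting of the counts not given in the sources used here. FPKM values, from Cufflinks 2.2.1.3, were deposited by the authors in a second table, used here for levels only and in no test. Their deposited table of pairwise DESeq2 comparisons, with fold changes and p-values, was not used. Tool names and versions are those of the submitters' processing notes and the paper's methods.

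Total counts of 23011791 to 27609422 per library set the depth, and the spread between replicates, which differed by far more than sampling noise in all 12 replicate pairs, limits the precision. As in the study's tests, 36 mitochondrial genes were left out. R 4.3.3 with edgeR 4.0.16 (TMM, filterByExpr by group with a minimum count of 10 and minimum total of 15, glmQLFit and glmQLFTest) was fitted over the whole table, on 2 groups for each pairwise comparison and on 12 libraries for embedding time over both gels, gel over both times, and the interaction. SE is the absolute log2 fold change divided by the square root of F. Scripts were tested on simulated data. The genes, the other pathway genes, the marker lists and the tests were chosen with earlier results of these data known. The genes named are all 10 of the list, the pathway's other receptor and ligands, Rbpj, Lfng, Nrarp, Hes6, Hes7, any other pathway gene called in a pairwise comparison, and the 3 genes most like a gene called the same way in both gels. Neural progenitor, presomitic mesoderm, endoderm and mural markers were measured as well.

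Libraries with the same replicate number deviated together by r of 0.195, 0.103 and 0.215 between embedding times in 1.5 mM gels, so that the numbers pair the libraries there by a limit of 0.1. In the other comparisons at least 1 pair was below 0.1. Alternatives were DESeq2 1.42.0, limma-voom (limma 3.58.1), RLE and upper quartile normalization, no filter, at least 1 CPM in 3 libraries, mitochondrial genes kept, the replicate block, a fold-change limit, a single fit of all libraries, and each library left out. Coordinates are 1-based on mm10.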

Additional observations from a re-analysis of the deposited data

How the results depend on the processing

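Over 1310 recomputed values, counts of called genes stayed within 1.5 times of the reported count in 126 cases and moved in 33. Of the values of single genes, 1061 kept direction and side of the threshold, 31 lost a call, 25 gained a call and 34 reversed sign, the last only where a library was left out of an uncalled value. The cause was not tested. The counts below are given without the share of all genes called in the same fit. They describe the fits and are not results about the listed genes.

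With the fold-change limit, 2 listed genes were called in 1.0 mM gels, 0 in 1.5 mM gels, 1 over both gels (Hey2) and 0 between gels over both times, and 1 other pathway gene (Dll3) in 1.5 mM gels. Without the low-count filter, 3 listed genes were called between times in 1.5 mM gels, 2 between gels at 72 h, 3 between gels at 96 h, 2 between gels over both times, and 1 had an interaction (Notch1), with 6 other pathway genes between times in 1.0 mM gels. DESeq2 called 1 listed gene between gels at 96 h and 5 other pathway genes between times in 1.0 mM gels, and the single fit of all libraries called 4 of the latter.

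With the replicate block, 3 listed genes were called between times in 1.5 mM gels (Jag1, Hes1 and Hey2), 1 between gels at 72 h (Hey1), 3 between gels at 96 h (Hes1, Hey1 and Hey2) and 7 other pathway genes between times in 1.0 mM gels. Notch3 was called with it between times in 1.0 mM gels (0.28, adjusted p = 0.0205). It moved no other count by over 1.5 times, and in 10 of 12 pairs, over the 4 pairwise comparisons, a library correlated best with its own number, with r from 0.0454 to 0.331, which is a hint from the data and not from the design.

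With each library left out in turn, the listed genes called ranged from 2 to 4 between times in 1.0 mM gels, 1 to 3 in 1.5 mM gels, 0 to 0 between gels at 72 h, 0 to 1 at 96 h, 3 to 4 between times over both gels, 0 to 1 between gels over both times and 0 to 0 for the interaction, and other pathway genes from 2 to 3 in 1.0 mM and 2 to 13 in 1.5 mM gels. Log2 fold changes of uncalled genes that changed sign ranged as follows. Between times in 1.5 mM gels, Dll4 ran from -0.33 to 0.15 and Hes5 from -0.49 to 0.33, and over both gels Dll4 from -0.040 to 0.22 and Hes5 from -0.22 to 0.19. Between gels, Notch2 ran from -0.029 to 0.12 and Hey2 from -0.50 to 0.16 at 72 h, Notch3 from -0.15 to 0.074 and Heyl from -0.48 to 0.034 at 96 h, and Notch2 from -0.079 to 0.010 over both times. Interactions ran from -0.19 to 0.047 for Notch3, -0.085 to 0.070 for Jag1, -0.22 to 0.068 for Hes1, -0.52 to 0.48 for Hes5 and -0.15 to 0.068 for Hey1.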
